A study of Mus musculus with 7 samples.

Results

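The 10 genes followed here belong to the thiazide-sensitive salt transport pathway of the distal tubule, measured in whole mouse kidney: Slc12a3, Wnk1, Wnk4, Klhl3, Cul3, Stk39, Oxsr1, Pvalb, Kcnj10 and Kcnj16. They were chosen by symbol as members of the pathway, and all 10 were found among the 48709 genes of the count table and passed the filter on low counts that left 15394 genes for testing. The libraries came from whole kidneys of male mice and fell into 2 groups: wild-type animals (WT, 3 libraries, replicates 1, 2 and 4) and animals with a double knockout of Hs3st3a1 and Hs3st3b1 (DKO, 4 libraries, replicates 1 to 4). Both genes encode heparan sulfate 3-O-sulfotransferases, enzymes that add a sulfate group to heparan sulfate chains. The labels give no age, strain or treatment, and they do not say which part of either gene was removed or in which cells. Each library carries its own number within its group in the labels and was taken as 1 animal.

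As background, Slc12a3 encodes NCC, the sodium chloride cotransporter of the distal convoluted tubule, the segment just beyond the loop of Henle, and NCC is the target of thiazide diuretics. The WNK kinases sense chloride and activate the kinases SPAK (Stk39) and OSR1 (Oxsr1), which phosphorylate NCC and so switch it on. KLHL3 and CUL3 form a ubiquitin ligase that marks WNK kinases for degradation, and inherited mutations in these WNK and ligase genes cause familial hyperkalemic hypertension. KCNJ10 and KCNJ16 form the basolateral potassium channel through which the segment senses plasma potassium, and parvalbumin (Pvalb) is a calcium-binding protein of its early part. Much of this control acts on protein and on phosphorylation, which RNA counts do not measure.

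The bases before the transcription start are shown for the cotransporter, for the 2 WNK kinases, which gave the lowest p-values among the 10 genes, and for Kcnj16, whose level split the DKO kidneys. All 10 genes were matched to RefSeq start sites of build GRCm38.p6, with 14 start sites in all, and the 250 bases before each were searched on both strands for TATAAA (the TATA box), GGGCGG (the GC box bound by SP1), GTTAAT (the core bound by HNF1 factors, regulators of kidney tubule genes) and AGAACA (the core of the steroid receptor element). The sequences below run 5′ to 3′ on the gene's strand, with each match on either strand in capitals. They lie at chr8:94328958-94329207 on the plus strand (Slc12a3), chr6:120038656-120038905 on the minus strand (Wnk1), chr11:101260317-101260566 on the plus strand (Wnk4) and chr11:110967783-110968032 on the plus strand (Kcnj16, the first of 4 start sites).
Slc12a3: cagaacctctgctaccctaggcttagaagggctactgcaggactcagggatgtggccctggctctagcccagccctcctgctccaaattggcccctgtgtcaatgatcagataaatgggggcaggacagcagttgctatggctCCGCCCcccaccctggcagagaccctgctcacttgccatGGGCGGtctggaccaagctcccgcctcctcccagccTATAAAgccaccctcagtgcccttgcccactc
Wnk1: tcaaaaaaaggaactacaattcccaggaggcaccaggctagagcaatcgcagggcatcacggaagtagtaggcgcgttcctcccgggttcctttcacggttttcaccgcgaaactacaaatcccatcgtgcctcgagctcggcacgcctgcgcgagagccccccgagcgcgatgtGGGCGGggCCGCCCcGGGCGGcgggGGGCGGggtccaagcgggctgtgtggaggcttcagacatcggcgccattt
Wnk4: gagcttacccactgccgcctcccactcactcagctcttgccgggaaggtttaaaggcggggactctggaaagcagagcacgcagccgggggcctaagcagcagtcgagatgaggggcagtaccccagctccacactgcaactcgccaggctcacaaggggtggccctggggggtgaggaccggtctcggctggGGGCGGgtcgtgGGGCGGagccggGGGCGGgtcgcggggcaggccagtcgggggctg
Kcnj16: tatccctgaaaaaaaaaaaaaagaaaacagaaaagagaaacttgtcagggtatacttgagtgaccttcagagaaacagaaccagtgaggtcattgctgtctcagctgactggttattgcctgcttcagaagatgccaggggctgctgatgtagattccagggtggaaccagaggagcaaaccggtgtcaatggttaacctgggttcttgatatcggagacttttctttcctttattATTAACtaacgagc
The Slc12a3 sequence held 1 TATA box, 32 bases before the start, and 2 GC boxes. The Wnk1 and Wnk4 sequences held no TATA box, with 4 GC boxes in Wnk1 and 3 in Wnk4. The first Kcnj16 sequence held neither, and had 1 GTTAAT match, 14 bases before the start. Across the 14 sequences of the 10 genes, TATAAA was found in 2, GGGCGG in 8, GTTAAT in 1 and AGAACA in 1. Over all 32851 RefSeq start sites the shares were 12.4%, 32.7%, 6.43% and 16.1%. A match describes the letters only.

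None of the 10 genes differed between genotypes after adjustment for all genes tested. The DKO mean was above the WT mean on the fitted scale for 8 of the 10, beside 53.2% of all genes, and below it for Stk39 and Pvalb. Their median log2 fold change (DKO minus WT) was 0.22 for the 10 genes against 0.036 over all 15394 genes. Wnk1 and Wnk4, the kinases at the head of the pathway, had the only unadjusted p-values under 0.05, both higher in DKO. NCC itself had almost the same mean level in both groups. For all 10 genes the WT and DKO libraries overlapped. Read counts were brought to CPM (a gene's reads relative to the size of its library, with library sizes adjusted by TMM, a trimmed mean of log ratios between libraries), and genotypes were compared with edgeR's quasi-likelihood test and Benjamini-Hochberg adjustment, with 0.05 as the threshold.

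That test called 0% of all genes at an adjusted p under 0.05. At an unadjusted p under 0.05 it gave 9.86% of all genes higher in DKO and 11.3% lower, 21.1% in either direction, so the members' 2 of 10 (20.0%) is near the share of all genes. The groups did not overlap in 8.34% of all genes with DKO higher and in 9.04% with DKO lower, and in 0 of the 10 members. DESeq2, run as an alternative, called 7.36% of the 9125 genes to which it gave an adjusted p, and none of the members, with Klhl3 given no adjusted p. No member was called under any of the 15 alternative settings.

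The libraries held 18330833 to 24259231 reads assigned to genes. Hs3st3a1 had 12 to 29 reads in the WT libraries and 0 to 3 in the DKO libraries, and reads of a neomycin cassette (0 in WT) numbered 73 to 125 in DKO. Hs3st3b1 had 33 to 112 reads over both groups, which overlapped, and with the removed part not stated this does not check its label. Marker lists of other kidney cell types were summed per library and not tested. The ranges did not overlap for 9 proximal tubule markers, at 4744 to 5899 CPM in WT and 6214 to 7166 CPM in DKO, or for 5 podocyte markers, at 84.5 to 96.1 CPM in WT and 99.8 to 128 CPM in DKO. Of the proximal tubule markers 7 were higher in DKO and 2 lower, and of the podocyte markers 4 and 1, beside 53.2% of all genes higher. The ranges overlapped for principal cell, intercalated cell, endothelial, leukocyte, red cell and adrenal cortex markers. For 7 thick ascending limb markers they overlapped, at 6041 to 9722 CPM in WT and 4292 to 6651 CPM in DKO, most of each sum was Umod (uromodulin), and 2 of the 7 markers were higher in DKO and 5 lower. Summed CPM of 6 skeletal muscle markers was 120.1 in DKO 1 and 3.69 to 5.89 in the other 6 libraries. The part of these differences in the values below was not tested. In whole tissue, fewer cells of a type and less RNA per cell cannot be told apart.

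**Figure D1:**
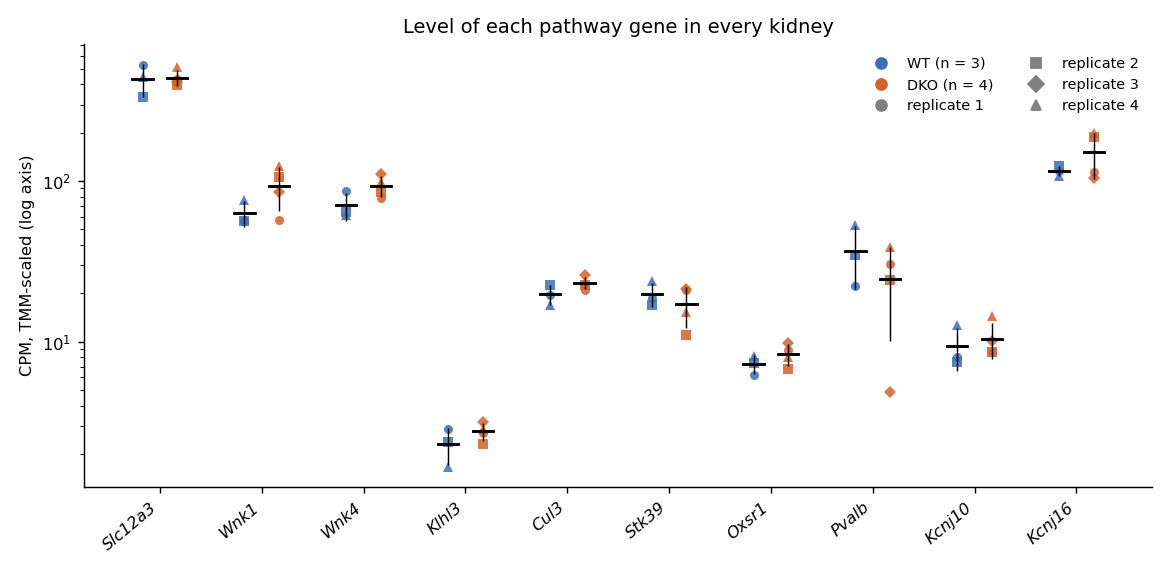
TMM-scaled CPM (log axis) of the 10 genes in each of the 7 kidneys, with 1 point per library (symbol by replicate), bars at the group mean and lines for ±1 SD. The 3 WT and 4 DKO points overlap for every gene, and the low Pvalb point is DKO 3 at 4.87 CPM.

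Slc12a3 (ENSMUSG00000031766; chr8:94329201-94366214, plus strand, GRCm38) was measured at 532, 333 and 442 CPM in WT 1, 2 and 4, and at 431, 399, 417 and 515 CPM in DKO 1 to 4. The highest and the lowest of the 7 kidneys were both WT, and all DKO values lay between them. WT averaged 436 ± 99.7 CPM (SD, n = 3), against 440.3 ± 51.2 for DKO (SD, n = 4). This gave a log2 fold change of 0.015 with a standard error (SE) of 0.19 and an edgeR adjusted p of 0.972. The 95% interval of the DKO to WT ratio ran from 0.753 to 1.36, and a true ratio anywhere inside it is compatible with these libraries. The exact two-sided permutation test over the 35 ways to choose 3 of 7 libraries gave p = 0.971, where 0.0286 is the smallest value it can give.

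The log2 fold change of Slc12a3 changed sign when a trend on exon length and GC content was removed. Over all genes, fold change followed exon length: the median log2 fold change was -0.31 in the shortest of 5 equal groups of genes and 0.26 in the longest, which starts at 7130 nucleotides. Slc12a3 has 11119 nucleotides of merged exons. With a per-library trend on exon length and GC content removed, its log2 fold change was -0.28 (SE 0.19, unadjusted p = 0.168). Neither this fit nor the main one detected a difference in Slc12a3. In the main fit without WT 2 the log2 fold change was -0.16, and without DKO 4 it was -0.068.

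Wnk1 (ENSMUSG00000045962; chr6:119923969-120038672, minus strand) encodes the kinase that acts on SPAK and OSR1 in many tissues. In the kidney the gene also makes a short form, which lacks the kinase domain, from an internal promoter. The bases shown above lie at the start of the gene, not at that internal promoter, which was not searched. Gene-level counts of Wnk1 do not separate the forms. Its level was 56.7, 56.7 and 76.7 CPM in WT 1, 2 and 4, and 57.3, 106.2, 86.2 and 125 CPM in DKO 1 to 4. DKO 2, 3 and 4 lay above every WT kidney, and DKO 1 lay within the WT range. WT averaged 63.4 ± 11.5 CPM (SD, n = 3), against 93.6 ± 28.9 CPM for DKO (SD, n = 4). On the fitted scale the difference was a log2 fold change of 0.56 (SE 0.25), with an unadjusted p of 0.0439 and an edgeR adjusted p of 0.226. The exact permutation p was 0.114.

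Wnk1 has the longest merged exons of the 10 genes, 22825 nucleotides, and with the length and GC trend removed the log2 fold change was 0.10 (SE 0.19, unadjusted p = 0.607). Leaving out DKO 1, the library with the muscle transcripts, gave 0.74, and leaving out DKO 4, the highest, gave 0.39. At neither value did Wnk1 pass the adjusted threshold.

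Wnk4 (ENSMUSG00000035112; chr11:101260567-101277409, plus strand) encodes the WNK kinase most closely tied to the distal convoluted tubule. It was measured at 86.4, 63.8 and 61.3 CPM in WT 1, 2 and 4, and at 78.7, 85.3, 110.3 and 98.1 CPM in DKO 1 to 4. DKO 3 and DKO 4 exceeded every WT kidney, whereas WT 1 exceeded DKO 1 and DKO 2. This corresponded to a log2 fold change of 0.40 (SE 0.18), with an unadjusted p of 0.0486, an edgeR adjusted p of 0.235 and an exact permutation p of 0.143. With the length and GC trend removed it was 0.32 (unadjusted p = 0.0881). The antisense gene Gm11615 overlaps 306 nucleotides of Wnk4 exons, 7.38% of their length, and the library kit does not mark strand. It had 0 to 11 reads per library beside 1205 to 2403 for Wnk4.

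Klhl3 (ENSMUSG00000014164; chr13:58000228-58113592, minus strand), the substrate adaptor that binds WNK kinases, was the lowest of the 10 genes, with 35 to 70 reads per library. Its level was 2.85, 2.38 and 1.66 CPM in WT 1, 2 and 4, and 2.69, 2.31, 3.18 and 2.86 CPM in DKO 1 to 4. WT 4 was the lowest kidney, and the other 6 lay close together. Its log2 fold change of 0.27 (SE 0.28, edgeR adjusted p = 0.594) was smaller than its SE.

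Cul3 (ENSMUSG00000004364; chr1:80264923-80340480, minus strand), the ligase scaffold used by many adaptors in most cells, was measured at 19.6, 22.6 and 17.0 CPM in WT 1, 2 and 4, and at 20.99, 22.7, 25.9 and 23.7 CPM in DKO 1 to 4. Its groups came close to separating, with WT 2 above DKO 1 only. It had the smallest spread within genotypes of the 10 genes, a standard deviation (SD) of 0.16 on the log2 scale, at the 13.8th percentile of all genes tested. Cul3 had a log2 fold change of 0.24 (SE 0.16, edgeR adjusted p = 0.389) and the exact permutation p was 0.114. Here the value with the trend removed was also 0.24.

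Stk39 (ENSMUSG00000027030; chr2:68210445-68472268, minus strand), which encodes SPAK, a kinase that phosphorylates NCC, was measured at 18.8, 17.0 and 23.8 CPM in WT 1, 2 and 4. In DKO 1 to 4 it was 20.95, 10.9, 21.2 and 15.4 CPM. DKO 2 and DKO 4 lay below every WT kidney, and DKO 1 and DKO 3 lay within the WT range. Stk39 had a log2 fold change of -0.21 (SE 0.24, edgeR adjusted p = 0.615).

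Oxsr1 (ENSMUSG00000036737; chr9:119238432-119322427, minus strand), which encodes the related kinase OSR1, was measured at 6.23, 7.36 and 8.19 CPM in WT 1, 2 and 4. In DKO 1 to 4 it was 8.85, 6.78, 9.79 and 8.04 CPM. DKO 1 and DKO 3 exceeded every WT kidney. Oxsr1 had a log2 fold change of 0.20 (SE 0.19, edgeR adjusted p = 0.554). Per kilobase of exon, Stk39 was 2.49 to 3.26 times Oxsr1 in WT and 1.74 to 2.56 times in DKO. The ranges of this ratio overlapped, since DKO 1 (2.56) exceeded WT 2 (2.49), and the ratio was not tested.

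Pvalb (ENSMUSG00000005716; chr15:78191114-78206400, minus strand) varied most. It was measured at 22.4, 34.9 and 53.4 CPM in WT 1, 2 and 4, and at 30.4, 24.3, 4.87 and 38.6 CPM in DKO 1 to 4. DKO 3 stood far below the other 6 kidneys, from 95 reads, and the other 3 DKO kidneys lay within the WT range. The SD within genotypes was 1.11 on the log2 scale, at the 98.6th percentile of all genes tested. Its log2 fold change was -0.59 (SE 0.62, edgeR adjusted p = 0.606), which became -0.24 without DKO 3 and -0.22 without WT 4. Pvalb is also a gene of fast skeletal muscle, whose marker Myh4 had 74 reads in DKO 1 and 0 in the other 6 libraries. Without DKO 1 the log2 fold change of Pvalb was -0.70. In DKO 3, the low Pvalb kidney, Slc12a3 (417 CPM) was within the range of the other kidneys. The summed CPM of 11 other distal tubule markers was lowest in DKO 3, at 3275, beside 3726 to 6711 in the other kidneys. Much of that sum was Fxyd2, also lowest there at 1552 CPM, while Tmem52b and Trpm6 were not lowest there. Whether these differences are linked to the low Pvalb was not tested.

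Kcnj10 (ENSMUSG00000044708; chr1:172341210-172374085, plus strand), the subunit whose loss causes the seizure and salt-wasting disorder EAST syndrome, was measured at 8.04, 7.52 and 12.6 CPM in WT 1, 2 and 4. In DKO 1 to 4 it was 8.63, 8.67, 10.2 and 14.4 CPM. WT 4 and DKO 4 were the 2 highest kidneys. Kcnj10 had a log2 fold change of 0.15 (SE 0.25, edgeR adjusted p = 0.742), and it was -0.041 without DKO 4.

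Kcnj16 (ENSMUSG00000051497; chr11:110968033-111027968, plus strand), its partner subunit, was measured at 115, 124 and 108 CPM in WT 1, 2 and 4, and at 113, 187, 105 and 199 CPM in DKO 1 to 4. DKO 2 and DKO 4 stood well above the other 5 kidneys, and DKO 1 and DKO 3 fell within or below the WT range. WT averaged 116 ± 8.09 CPM (SD, n = 3), against 151 ± 48.8 CPM for DKO (SD, n = 4). That is a log2 fold change of 0.38 (SE 0.24, edgeR adjusted p = 0.36), and 0.37 with the length and GC trend removed. Kcnj10 per kilobase was 0.034 to 0.085 of Kcnj16 over all 7 kidneys, so in whole kidney the Kcnj16 transcript was the more abundant. These counts do not show which cells made either transcript, so the ratio does not describe the channel of the distal tubule.

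**Figure D2:**
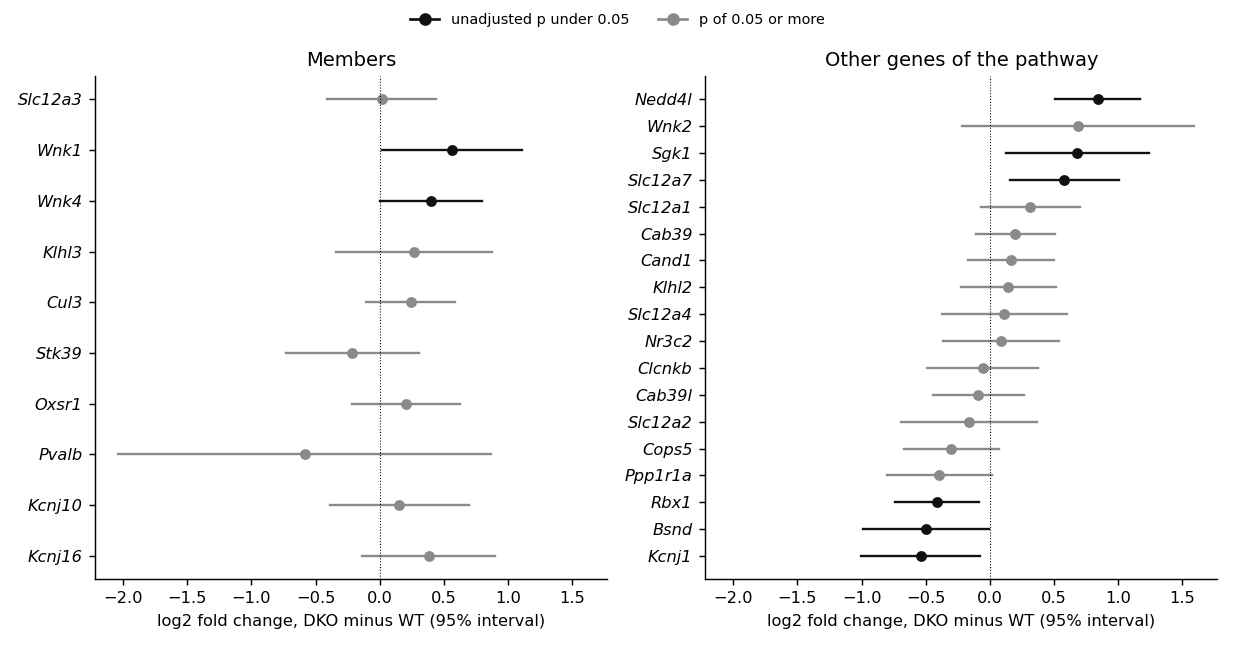
The log2 fold change (DKO minus WT) with its 95% interval for the 10 members (left) and for tested genes of the wider pathway, with 1 item left out (right), with an unadjusted p under 0.05 in black. Among the members only the Wnk1 and Wnk4 intervals leave 0, and on the right Nedd4l lies highest at 0.84 and Kcnj1 lowest at -0.54.

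**Figure D3:**
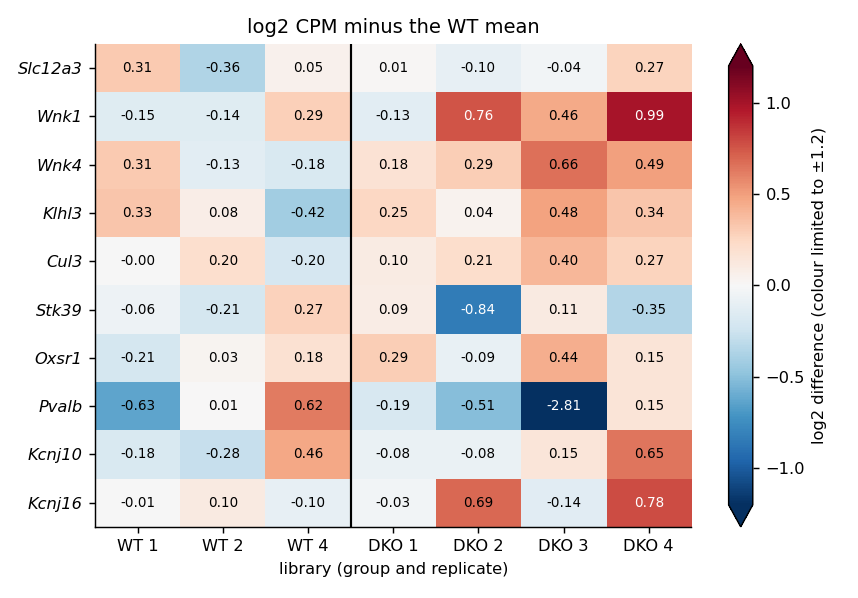
The log2 CPM of each member in each library minus the WT mean, with the colour limited to ±1.2. DKO 4 is above the WT mean for 9 of the 10 genes and DKO 3 for 7, and Pvalb in DKO 3 is the most extreme cell.

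Seen by kidney, no single library was highest for all members. The median of the 10 log2 differences from the WT mean was -0.036, -0.059 and 0.11 in WT 1, 2 and 4, and 0.052, -0.018, 0.27 and 0.30 in DKO 1 to 4. DKO 3 and DKO 4 were the high kidneys, through different genes: Wnk4, Klhl3, Cul3 and Oxsr1 were highest in DKO 3, while Wnk1, Kcnj10 and Kcnj16 were highest in DKO 4.

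Merged exons pool all annotated transcripts of a gene, 26 for Wnk1 and 1 for Kcnj10, and not only those expressed. Levels per kilobase therefore compare different genes only roughly. On this scale Slc12a3 led in WT kidneys at 39.2 ± 8.97 CPM per kb (SD, n = 3). Pvalb followed at 35.4, Kcnj16 at 29.5 and Wnk4 at 17.0. Cul3 (4.05), Stk39 (4.01), Wnk1 (2.78), Kcnj10 (1.74), Oxsr1 (1.36) and Klhl3 (0.314) formed the lower group. Over all 7 kidneys the ranges of neighbours in that order were separate only between Kcnj16 and Wnk4, between Wnk4 and Cul3, and between Oxsr1 and Klhl3. Slc12a3, Pvalb and Kcnj16 could not be ranked against each other, since their ranges over all 7 kidneys overlapped. Pvalb ran from 4.68 to 51.3 CPM per kb, so its range also overlapped those of Wnk4, Cul3, Stk39 and Wnk1, through the low value of DKO 3 for the last 3. From Cul3 to Oxsr1 each gene overlapped the next, while Cul3 (3.50 to 5.31) lay wholly above Kcnj10 (1.39 to 2.66), and Cul3, Stk39 and Wnk1 lay wholly above Oxsr1 (1.16 to 1.83).

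**Figure D4:**
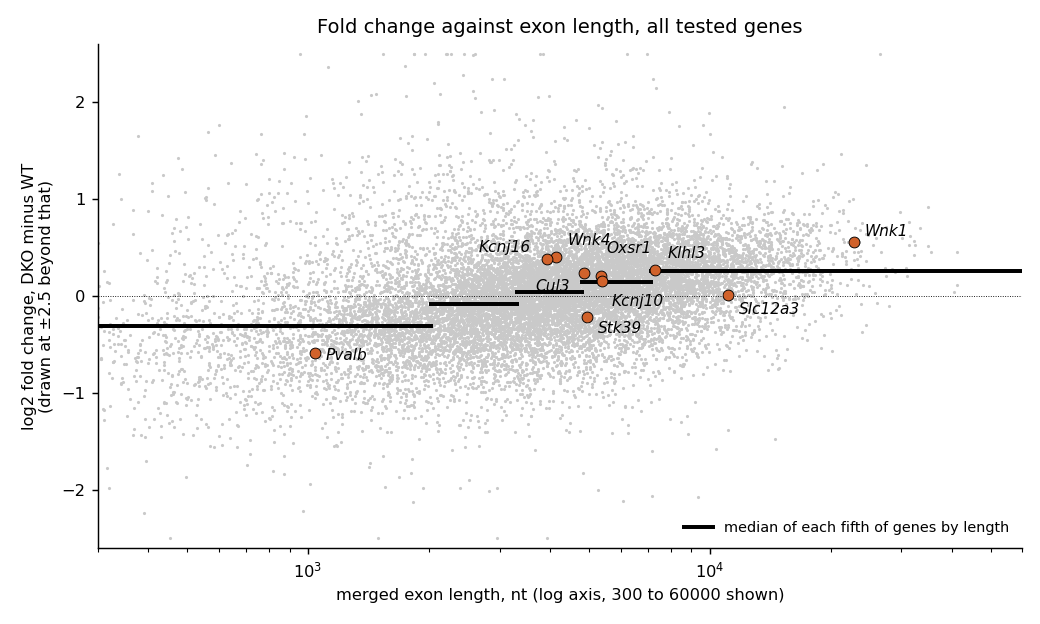
The log2 fold change (DKO minus WT) of every tested gene against merged exon length (log axis), with the 10 members in orange and the median of each of 5 equal groups of genes as bars. The bars climb from -0.31 to 0.26, Wnk1 lies above the bar of its group and Slc12a3 below it.

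Of the 10 members, 8 are longer than the median gene of 4008 nucleotides, and 3 (Slc12a3, Wnk1 and Klhl3) fall in the longest of the 5 groups, where 78.1% of genes were higher in DKO. With the trend removed, 7 of the 10 were higher in DKO, beside 7522 of all 15394 genes, with a median log2 fold change of 0.074 against -0.009 over all genes. The members furthest from 0 were then Kcnj16 (0.37), Stk39 (-0.33) and Wnk4 (0.32). No member had an unadjusted p under 0.05 in that fit, beside 16% of all genes.

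**Figure D5:**
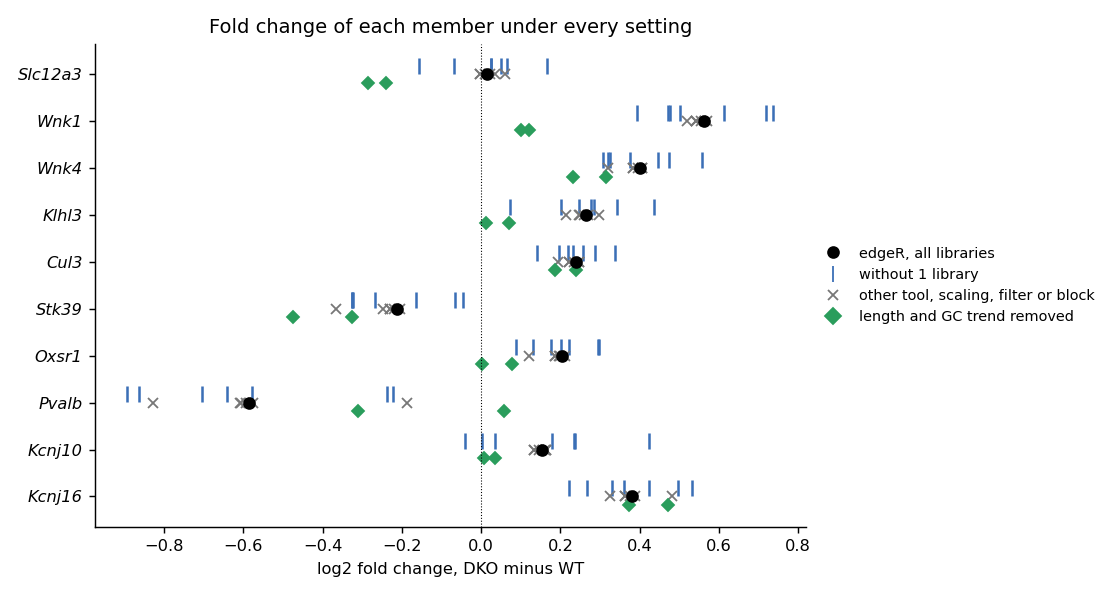
The log2 fold change (DKO minus WT) of each member under the main setting (black point) and the 15 alternatives: 1 library left out (blue ticks), another tool, scaling, filter or block (crosses), and the length and GC trend removed (green diamonds). Slc12a3 lies on both sides of 0, from -0.28 to 0.17, and Wnk1 stays above 0, from 0.10 to 0.74.

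Around these 10 genes, 20 further genes of the pathway were read, of which 19 could be tested and Wnk3 could not. None was called by edgeR at an adjusted p under 0.05. Higher in DKO were 11 and lower 8, beside 53.2% of all genes higher, with a median log2 fold change of 0.11. An unadjusted p under 0.05 was reached by 7 of the 19 (36.8%), of which 4 were above WT and 3 below. This stood beside 21.1% of all genes (9.86% higher and 11.3% lower). The groups did not overlap for Cab39, Nedd4l and Slc12a7 (DKO higher) and for Rbx1 (DKO lower), a pattern seen in 8.34% and 9.04% of all genes.

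Nedd4l, a ubiquitin ligase that removes sodium transporters from the membrane, had the lowest p of the list. It ranged from 28.0 to 33.5 CPM in WT and from 46.6 to 57.3 CPM in DKO, with no overlap. Its log2 fold change was 0.84 (SE 0.15), with an unadjusted p of 0.000159 and an edgeR adjusted p of 0.163, and DESeq2 gave an adjusted p of 0.000619. With the length and GC trend removed the log2 fold change was 0.48 (unadjusted p = 0.00455). Sgk1, the aldosterone-induced kinase that inhibits NEDD4-2, had a log2 fold change of 0.68 (unadjusted p = 0.0214), from 36.0 to 47.1 CPM in WT and 46.7 to 104 CPM in DKO.

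Slc12a7, a potassium chloride cotransporter that WNK signalling switches off, ranged from 43.9 to 59.6 CPM in WT and from 67.5 to 103 CPM in DKO. It had a log2 fold change of 0.58 (SE 0.19, unadjusted p = 0.0114), and 0.25 with the trend removed (unadjusted p = 0.165). For Slc12a1, the related cotransporter of the thick ascending limb, the difference was 0.31 on the log2 scale (SE 0.18, edgeR adjusted p = 0.314), and the gene was picked out with its value known.

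Lower in DKO was Rbx1, the RING subunit that CUL3 ligases share, at 197 to 211 CPM in WT and 133 to 170 CPM in DKO, a log2 fold change of -0.41 (SE 0.15, unadjusted p = 0.018). Kcnj1, the apical potassium channel ROMK, had -0.54 (unadjusted p = 0.0265), and Bsnd, the chloride channel subunit barttin, had -0.50 (unadjusted p = 0.0471). Rbx1 and Kcnj1 kept an unadjusted p under 0.05 with the trend removed, at log2 fold changes of -0.45 and -0.50, and Bsnd had an unadjusted p of 0.0568. In that fit 26.3% of the 19 tested pathway genes had an unadjusted p under 0.05, beside 16% of all genes.

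Of 11 other markers of the distal tubule, 4 were higher and 7 lower in DKO, beside 53.2% of all genes higher. Their median log2 fold change was -0.096, and none of the 11 was called by edgeR at an adjusted p under 0.05. The 3 with an unadjusted p under 0.05 (27.3%, beside 21.1% of all genes) were lower in DKO, as were 11.3% of all genes. S100g, the calcium-binding protein calbindin-D9k, ranged from 482 to 1854 CPM in WT and 241 to 710.3 CPM in DKO (log2 fold change -1.27, unadjusted p = 0.0283). The 1854 CPM was WT 4 alone. WT 1 and WT 2 had 482 and 744 CPM, beside 710.3 CPM in DKO 1. Fxyd2, the gamma subunit of the sodium pump, had -0.48 (unadjusted p = 0.0287) with groups that did not overlap, and Emx1, a transcription factor gene of the distal tubule, had -0.54 (unadjusted p = 0.028). The groups also did not overlap for Trpv5, an apical calcium channel, which was higher in DKO at 0.40 (unadjusted p = 0.0634). With the trend removed Fxyd2 and Emx1 stayed below 0.05 in unadjusted p, at -0.57 and -0.37, while S100g had -0.87 (unadjusted p = 0.0547) and Trpv5 came below 0.05, at 0.43. In that fit 27.3% of the 11 markers had an unadjusted p under 0.05, beside 16% of all genes. Summed CPM of the 11 markers ranged from 4423 to 6711 in WT and from 3275 to 4894 in DKO, ranges that overlapped. Much of each sum was Fxyd2, with 2416 of 5394 CPM in WT 1 and 1847 of 4353 CPM in DKO 1. Whole-kidney counts do not show how much of it came from the distal tubule.

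Genes were also ranked by how closely they followed Slc12a3 from kidney to kidney. The measure was the root mean square difference of log2 CPM over the 7 libraries after centring within each genotype, and the 5 closest of 15393 genes were Tle6 (0.0516), Gnai2 (0.0542), Tor4a (0.0629), Parvb (0.066) and Camta1 (0.0668). In the same order their WT means were 1.699, 61.56, 26.94, 3.488 and 22.22 CPM, so Tle6 and Parvb rest on few reads. Whether values this small arise by chance among 15393 genes over 7 libraries was not tested. The ranking therefore does not show that these genes are linked to Slc12a3. A gene that did not vary would score 0.21. Among the distal tubule markers the closest, named after their values were seen, were Tmem52b, 58th at 0.101, and Trpm6, 256th at 0.14. Among the other members Wnk4 was closest (0.20), and Pvalb (0.941) was among the furthest.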

How the data were processed

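Whole kidney RNA of 3 WT and 4 DKO male mice was sequenced from unstranded libraries, per the labels' protocols. The authors deposited raw read counts per Ensembl gene, which were used here, a filtered count table (used as an alternative), and a TMM-scaled CPM table, a normalised signal used only to find members by symbol. Alignment was with STAR 2.5.2a, per the submitters' processing notes, which name GRCm38 (mm10) and also GRCh38 with no role. The counter, its strand setting and the annotation release were not given in the sources used.

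From the counts, 24 rows of transgenes and spike-ins (at most 0.0006966% of a library) were left out. Genes were filtered with filterByExpr (minimum count 10, minimum total 15), scaled by TMM and tested with edgeR 4.0.16 (R 4.3.3). DESeq2 1.42.0 and limma 3.58.1 (voom) were alternatives, with other scaling, other filters, each library left out, a replicate block, and length and GC offsets (splines with 4 degrees of freedom). Permutations used log2 CPM with prior count 2. Lengths and coordinates are from GENCODE M21 (GRCm38), which matched 48349 genes. Libraries of a group differed beyond sampling noise (chi-square per gene 40.8 to 97.5). Named beside the members were pathway genes and distal tubule markers with an unadjusted p under 0.05, and the 5 genes closest to Slc12a3. An item that this rule names is not reported here. The members and lists were chosen with earlier results of these data known.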

Additional observations from a re-analysis of the deposited data

Results flagged for a closer look

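In groups of 4 the library furthest from the rest was compared with Dixon's 95% critical value, for 42 values in all, and 2 passed. Chance alone flags about 1 in 20 such groups. Nedd4l in DKO 1, at 46.6 CPM, was low beside the other 3 DKO kidneys and still above every WT kidney. The summed skeletal muscle markers in DKO 1, at 120 CPM, were high beside the other 3 DKO kidneys.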

How the results depend on the processing

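No member was called at an adjusted p under 0.05 in any of the 15 alternatives. The log2 fold change of Slc12a3 changed sign between settings, with no difference detected in any. It was -0.0024 with DESeq2 and with DESeq2 size factors, and -0.28 with the length and GC trend removed. With the replicate block and the trend removed it was -0.24, and with 1 library left out it was -0.16 to 0.17. Pvalb turned to 0.058 with the block and the trend removed, and Kcnj10 ranged from -0.041 to 0.42 with 1 library left out. The cause was not tested.

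Members at an unadjusted p under 0.05, 2 in the main analysis, numbered 1 with DESeq2, limma-voom, DESeq2 size factors or the replicate block, 0 with the trend removed with or without the block, and 0 to 2 with 1 library left out (0 without WT 2, DKO 2 or DKO 4). Over all genes, 0 were called in the main analysis, 672 with DESeq2, 66 with no low-count filter, 1 with the block and the trend removed, and 0 to 7 with 1 library left out. Genes at an unadjusted p under 0.05 numbered 3250 in the main analysis, 1807 with the block and the trend removed, and 1582 to 3796 with 1 library left out. The other pathway genes numbered 7, 2 and 4 to 8 in the same order. Same-numbered libraries correlated at -0.133, 0.164 and 0.135 for numbers 1, 2 and 4. Not every library correlated best with its own number. With so few shared numbers, these correlations cannot decide whether replicate numbers pair the samples. Klhl3 had the fewest reads of the members, 35 to 70 per library, and Pvalb the largest SE, 0.62.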
